A study of Homo sapiens with 6 samples.

Results

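The intermediate filament genes described here were followed in SK-N-SH, a line of human neuroblastoma cells, and were chosen by symbol: the keratin genes KRT8, KRT18 and KRT19, the vimentin gene VIM, the nestin gene NES, the neurofilament genes NEFL, NEFM and NEFH, and the genes of α-internexin (INA) and peripherin (PRPH). Each symbol had a single row, so 10 of the 26789 rows of the table were members, and all 10 were among the 11791 genes with a mean of at least 1 FPKM over the 6 libraries (fragments scaled by gene length and library total). The tested cells, labelled DA+, had 6 h of dopamine, and the DA- cells had medium alone for the same time (n = 3 libraries each). All 6 libraries are labelled as wild type SK-N-SH, whereas the series design text names SH-SY5Y, a subline of SK-N-SH. The dose is not interpreted, because its printed unit appears to lack a prefix. Nothing in the labels says that the replicates came from separate cultures, so the spread between them may be technical.

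Intermediate filaments are the ropes of the cytoskeleton, built from coiled-coil proteins that differ between cell types. Keratins form them in epithelia as obligate pairs of a type II chain such as keratin 8 and a type I chain such as keratin 18. Vimentin forms them in mesenchymal cells, nestin joins vimentin in progenitor cells, and the neurofilament chains, α-internexin and peripherin form them in neurons. Cultures of SK-N-SH are known to hold neuroblast-like cells and flat, substrate-adherent cells side by side. In RNA from whole cultures, fewer cells of a type and less RNA per cell cannot be told apart.

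The member set was proposed with earlier results of these data known, and its rule names the DA+ against DA- contrast. The differences between the groups are therefore given as a description, and nothing is supported with them. The measured value that the rule itself uses, the mean FPKM for choosing between repeated symbols, chose nothing here.

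The library totals, recovered from the steps between low values, lay between 19422000 and 24221000 fragments, a ratio of 1.25. With the longest annotated transcript as length, VIM stood for about 44835 to 58086 fragments in a library, KRT19 for 36 to 69 and PRPH for 61 to 107, so counting error weighs most on the last pair. Adrenergic neuroblastoma markers were set beside the labelled cell type. Of 11 such genes 10 had a mean of at least 1 FPKM, with HAND2 at 121 to 140 FPKM in DA+ and 114 to 139 FPKM in DA- cells. Whether the cells were SK-N-SH or its subline SH-SY5Y was not tested. The libraries also differed in how values depended on GC content. The deviation of a library from the gene means changed by -0.26 to -0.03 log2 units per 10 points of GC in DA+ and by 0.02 to 0.22 in DA- cells. GC content and transcript length are therefore set beside the results, with values after a loess correction for both. The sign of the GC trend goes with the group, so a technical trend and an effect of dopamine cannot be told apart. The correction may thus take out or bring in differences of either kind.

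KRT8 and KRT18 have many processed copies in the genome, and reads can be shared between a gene and its copies. The table held 28 autosomal rows named as KRT18 pseudogenes and 21 named as KRT8 pseudogenes. The highest in mean FPKM were KRT18P17 and KRT8P12. The coding sequence of KRT18 was identical to KRT18P17 at 1199 of 1278 aligned bases (93.8%), and that of KRT8 to KRT8P12 at 1255 of 1385 (90.6%).

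The promoter windows of NES, VIM and KRT8 (RefSeq, GRCh38.p14) are shown because NES and KRT8 were lower in DA+ cells, while the start of VIM lies under an antisense gene that was also measured. They lie at chr1:156677358-156677657 (minus strand), chr10:17227991-17228290 (plus strand) and chr12:52926420-52926719 (minus strand). Each window runs over 1 RefSeq start of its gene, and other start sites are not covered. The KRT8 window lies inside the wider span that the annotation gives this gene. It is far upstream of coding bases 85 to 174 of KRT8, which lie at chr12:52904892-52904981. It may therefore not be the start used in these cells, and any start nearer to the coding exons is not covered. Capitals mark matches to any of 6 motifs searched on both strands.
NES: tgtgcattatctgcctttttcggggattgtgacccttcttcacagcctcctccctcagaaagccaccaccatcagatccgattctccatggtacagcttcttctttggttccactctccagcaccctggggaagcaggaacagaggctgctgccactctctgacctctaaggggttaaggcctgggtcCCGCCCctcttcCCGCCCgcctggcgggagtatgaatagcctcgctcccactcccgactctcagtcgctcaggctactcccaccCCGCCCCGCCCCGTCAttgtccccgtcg
VIM: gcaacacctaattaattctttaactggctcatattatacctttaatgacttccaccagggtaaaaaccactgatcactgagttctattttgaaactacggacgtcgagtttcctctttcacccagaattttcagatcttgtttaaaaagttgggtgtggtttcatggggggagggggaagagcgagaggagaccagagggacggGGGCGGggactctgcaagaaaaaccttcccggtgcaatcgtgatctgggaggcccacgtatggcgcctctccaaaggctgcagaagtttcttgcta
KRT8: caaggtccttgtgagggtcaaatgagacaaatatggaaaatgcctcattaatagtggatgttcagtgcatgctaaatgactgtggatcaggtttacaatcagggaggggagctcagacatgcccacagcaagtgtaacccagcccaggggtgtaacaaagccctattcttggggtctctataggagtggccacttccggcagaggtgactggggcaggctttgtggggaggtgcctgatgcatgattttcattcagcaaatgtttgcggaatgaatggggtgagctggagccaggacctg

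The table of promoters matched 5 members by symbol, NES, VIM, INA, PRPH and KRT8. The GC box (GGGCGG) was present in NES, VIM and INA, and in 45% of 35116 promoters. A TATA box (TATAAA) was present in PRPH alone of the 5, and in 11.5% of all promoters. NES held the core of the antioxidant response element (TGACNNNGC, 13.3% of all promoters) on its minus strand, first base at position 30 after the start. This match shares bases with a GC box at position 28 and with the short form of the cyclic AMP response element (TGACG, 24.6% of all promoters) at position 34. Neither the CCAAT box (CCAAT, 34.6%) nor the AP-1 site (TGANTCA, 7.71%) was found in these 5 windows, and the KRT8 window held none of the 6. A match is a run of letters and was not tested as a binding site.

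In FPKM, a scale per length, the members spanned a wide range of levels. VIM had a mean of 874 FPKM over the 6 libraries and ranked 18 of 11791 genes. KRT18 followed at 118 FPKM (rank 274), NES at 61.5, KRT8 at 16.4, NEFH at 9.85, INA at 8.94, NEFL at 6.76, NEFM at 6.61, KRT19 at 1.68 and PRPH at 1.22 FPKM. The order was the same in all 6 libraries except among neighbours in the neuronal group, where NEFH lay above INA in 5 of 6 libraries and NEFL above NEFM in 4 of 6. These RNA levels thus put vimentin first, KRT18 and nestin next, and KRT8 below them, at 1.67 times the level of the highest neuronal chain, NEFH.

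**Figure D1:**
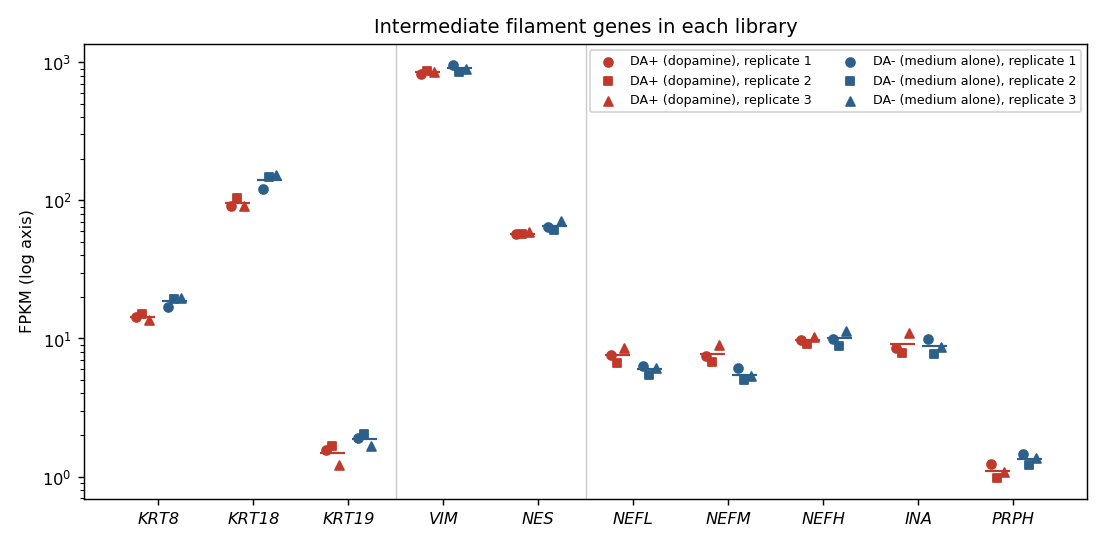
FPKM on a log axis of the 10 genes in the 3 DA+ and 3 DA- libraries, with horizontal lines at the group means and vertical lines between keratins, VIM with NES, and neuronal chains. KRT18 sits between 90.4 and 104 FPKM in DA+ libraries, all below the DA- libraries at 121 to 153 FPKM, whereas NEFM sits between 6.80 and 8.99 FPKM in DA+ libraries, all above the DA- libraries at 5.01 to 6.06 FPKM.

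With dopamine, KRT8 and KRT18 were lower in every library than in any DA- library, and NEFM and NEFL were higher. VIM, the most abundant member, overlapped between the groups. In 6 of the 10 members the DA+ values did not overlap the DA- values, 4 of them lower and 2 higher, beside 38.4% of all tested genes (14.1% lower and 24.4% higher). None of the 10 passed an adjusted p of 0.05 in limma, a linear model with moderated variances fitted over all tested genes and adjusted by the Benjamini-Hochberg method. In that fit 12 of 11791 genes (0.102%) passed. Those higher in DA+ cells were 0.0848% of all tested genes, and those lower 0.017%. The smallest adjusted p among the members was 0.11. Unadjusted, 5 members had a p under 0.05, 3 lower and 2 higher, beside 32.5% of all genes (8.05% lower and 24.4% higher). The 10 members had a median log2 fold change of -0.14, beside 0.08 for all genes in the fit. No member was called in 16 of 19 alternative settings; 3 were without DA- replicate 1 (KRT8, KRT18 and NEFM), 4 with sample quality weights (these and NEFL) and 1 after quantile normalization (KRT18).

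KRT18 (ENSG00000111057.6, hg19 chr12:53342655-53346685), the type I chain of the simple-epithelial pair, had 91.3, 104 and 90.4 FPKM in DA+ replicates 1, 2 and 3, against 121, 148 and 153 FPKM in DA- replicates 1, 2 and 3. All DA+ values lay below all DA- values, and DA- replicate 1 stood nearest to them. The means were 95.4 ± 7.91 FPKM in DA+ and 141 ± 17.3 FPKM in DA- cells (SD, n = 3 each), a log2 fold change of -0.55 (SE 0.10) on the log2(FPKM + 0.5) scale.

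KRT8 (ENSG00000170421.7, chr12:53290977-53343738), its type II partner and genomic neighbour, had 14.2, 14.9 and 13.6 FPKM in DA+ replicates 1 to 3, against 16.9, 19.5 and 19.5 FPKM in DA- replicates 1 to 3. The groups again did not overlap, and DA- replicate 1 was again the lowest of its group. The log2 fold change was -0.37 (SE 0.09). The annotated spans of KRT8 and KRT18 share 1084 bases, and the strand setting of the authors' counting was not given in the sources used here.

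KRT19 (ENSG00000171345.9, chr17:39679869-39684560), a short type I keratin gene of simple and ductal epithelia, was near the lower limit, with 1.55, 1.66 and 1.22 FPKM in DA+ replicates 1 to 3, against 1.90, 2.05 and 1.68 FPKM in DA- replicates 1 to 3. The highest DA+ and the lowest DA- values almost touched. Its log2 fold change was -0.27 (SE 0.14).

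Most of the RNA of the 3 keratin members was KRT18. It made up 85.8 ± 0.522% of the summed FPKM of the 3 keratin genes in DA+ and 87.2 ± 0.659% in DA- cells. KRT8 stood at 0.156, 0.143 and 0.151 of the KRT18 value in DA+ replicates 1 to 3, against 0.140, 0.131 and 0.127 in DA- replicates 1 to 3. The ratio was thus higher in each DA+ library than in any DA- library, with a difference of the means of 0.017, and it does not depend on the scaling of the libraries. KRT8 and KRT18 have GC contents of 56.2 and 55.7%, and the ratios did not overlap between the groups after the GC and length correction either. Of single genes, 38.4% did not overlap as deposited. How often ratios of other gene pairs separate the groups was not tested, and neither was the cause of the difference.

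The autosomal KRT18 pseudogene rows summed to 2.90, 4.11 and 3.66 FPKM in DA+ replicates 1 to 3, against 3.45, 5.39 and 5.91 FPKM in DA- replicates 1 to 3. Those of KRT8 summed to 3.54, 3.55 and 4.30 FPKM in DA+ against 3.54, 4.18 and 4.60 FPKM in DA- replicates 1 to 3. Both sums overlapped between the groups. The KRT18 sum was 3.18, 3.94 and 4.05% of KRT18 itself in DA+ and 2.85, 3.64 and 3.86% in DA- replicates 1 to 3. The KRT8 sum was larger beside its gene, at 24.8, 23.7 and 31.6% of KRT8 in DA+ and 20.9, 21.5 and 23.6% in DA- replicates 1 to 3. The part of such copies in the KRT8 value and in the KRT8 to KRT18 ratio was not tested. The keratin values are uncertain to the extent that reads were shared between copies, since their counting was not given in the sources used here.

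VIM (ENSG00000026025.9, chr10:17270258-17279592), the main filament gene of mesenchymal cells, had 822, 866 and 847 FPKM in DA+ replicates 1 to 3, against 961, 848 and 900 FPKM in DA- replicates 1 to 3. The groups overlapped through DA- replicate 2. The log2 fold change was -0.09 (SE 0.09). At 46.9% its GC content was the lowest of the 10, and after the GC and length correction its log2 fold change was -0.28 (SE 0.06, adjusted p = 0.148 in limma), with all corrected DA+ values below all DA- values.

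A pair of antisense genes overlap VIM. VIM-AS1 (chr10:17256238-17271984), which spans the VIM start and shares 1727 bases with the VIM span, had 15.4, 11.6 and 9.84 FPKM in DA+ replicates 1 to 3, against 19.9, 10.5 and 12.5 FPKM in DA- replicates 1 to 3. RP11-124N14.3 (chr10:17275324-17276832), which lies inside VIM, had 65.9, 37.2 and 37.4 FPKM in DA+ replicates 1 to 3, against 94.9, 37.1 and 43.2 FPKM in DA- replicates 1 to 3. Replicate 1 was the highest of its group for both genes in DA+ and in DA- cells. Beside a gene as abundant as VIM, reads of the sense and antisense genes may not be separable, and this was not tested.

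NES (ENSG00000132688.10, chr1:156638555-156647189), the progenitor filament gene, had 56.7, 56.8 and 58.9 FPKM in DA+ replicates 1 to 3, against 64.4, 61.3 and 70.8 FPKM in DA- replicates 1 to 3. The DA+ values lay close together and below all DA- values, and the log2 fold change was -0.18 (SE 0.08). After the GC and length correction it was -0.07 (SE 0.07), and the groups overlapped.

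The summed FPKM of KRT8, KRT18 and KRT19 was 13.0, 14.0 and 12.4% of the VIM value in DA+ replicates 1 to 3, against 14.6, 20.0 and 19.4% in DA- replicates 1 to 3. DA- replicate 1 stood next to the DA+ libraries, and the groups did not overlap. After the GC and length correction the means were 14.2 ± 0.772% in DA+ and 16.5 ± 2.03% in DA- cells and the groups overlapped. NES was 6.81 ± 0.213% of VIM in DA+ and 7.27 ± 0.585% in DA- cells as deposited, with overlap, and 7.57 ± 0.853% in DA+ and 6.55 ± 0.105% in DA- cells after the correction, so the order of the means turned round. The corrected values did not overlap and were higher in every DA+ library.

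NEFM (ENSG00000104722.9, chr8:24770525-24776607), the medium neurofilament chain, had 7.45, 6.80 and 8.99 FPKM in DA+ replicates 1 to 3, against 6.06, 5.01 and 5.37 FPKM in DA- replicates 1 to 3. DA+ replicate 3 was the highest, and the groups did not overlap. The means were 7.75 ± 1.12 FPKM in DA+ and 5.48 ± 0.537 FPKM in DA- cells, a log2 fold change of 0.46 (SE 0.12), or 0.47 (SE 0.11) after the GC and length correction.

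NEFL (ENSG00000104725.9, chr8:24808468-24814624), the light chain on which the other neurofilament chains assemble, lies next to NEFM and is typed as a processed transcript in the table. It had 7.55, 6.60 and 8.49 FPKM in DA+ replicates 1 to 3, against 6.33, 5.46 and 6.11 FPKM in DA- replicates 1 to 3. The groups did not overlap, though DA+ replicate 2 and DA- replicate 1 were close. The log2 fold change was 0.31 (SE 0.11), and 0.17 (SE 0.08) after the correction, when the groups overlapped.

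NEFH (ENSG00000100285.9, chr22:29876219-29887379), the heavy chain of mature axons, had 9.78, 9.06 and 10.2 FPKM in DA+ replicates 1 to 3, against 9.97, 8.76 and 11.3 FPKM in DA- replicates 1 to 3. These ranges lay inside each other, with a log2 fold change of -0.04 (SE 0.11). INA (ENSG00000148798.5, chr10:105036920-105050108), which co-assembles with neurofilaments in central neurons, had 8.53, 7.85 and 10.9 FPKM in DA+ replicates 1 to 3, against 9.94, 7.78 and 8.64 FPKM in DA- replicates 1 to 3. Its log2 fold change of 0.04 (SE 0.14) was below 0 after median-of-ratios scaling (-0.07) and quantile normalization (-0.05), and neither NEFH nor INA had a stable sign.

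PRPH (ENSG00000135406.9, chr12:49687035-49692465), the filament gene of peripheral neurons, was the lowest member, with 1.23, 0.972 and 1.09 FPKM in DA+ replicates 1 to 3, against 1.46, 1.21 and 1.36 FPKM in DA- replicates 1 to 3. The groups overlapped by a narrow margin, and the log2 fold change was -0.21 (SE 0.14).

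The balance within the neurofilament triplet differed between the groups. NEFH made up 39.5, 40.3 and 36.9% of the summed FPKM of NEFL, NEFM and NEFH in DA+ replicates 1 to 3, against 44.6, 45.6 and 49.5% in DA- replicates 1 to 3. NEFM made up 30.1, 30.3 and 32.4% in DA+ and 27.1, 26.0 and 23.6% in DA- replicates 1 to 3. Neither share overlapped between the groups, before or after the GC and length correction. The shares are parts of the same sum, so a lower NEFH share can follow from higher NEFM and NEFL values alone. NEFH itself overlapped between the groups on both scales, with a log2 fold change of -0.04 as deposited and 0.05 after the correction. How often shares within other gene sets separate the groups was not tested. The NEFL share was 30.2 ± 0.673% in DA+ and 27.8 ± 0.860% in DA- cells without overlap, but 28.7 ± 1.31% in DA+ and 29.4 ± 0.915% in DA- cells after the correction, with overlap. The NEFL to NEFM ratio was 0.977 ± 0.035 in DA+ and 1.09 ± 0.047 in DA- cells, and it was lower in every DA+ library on both scales.

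**Figure D2:**
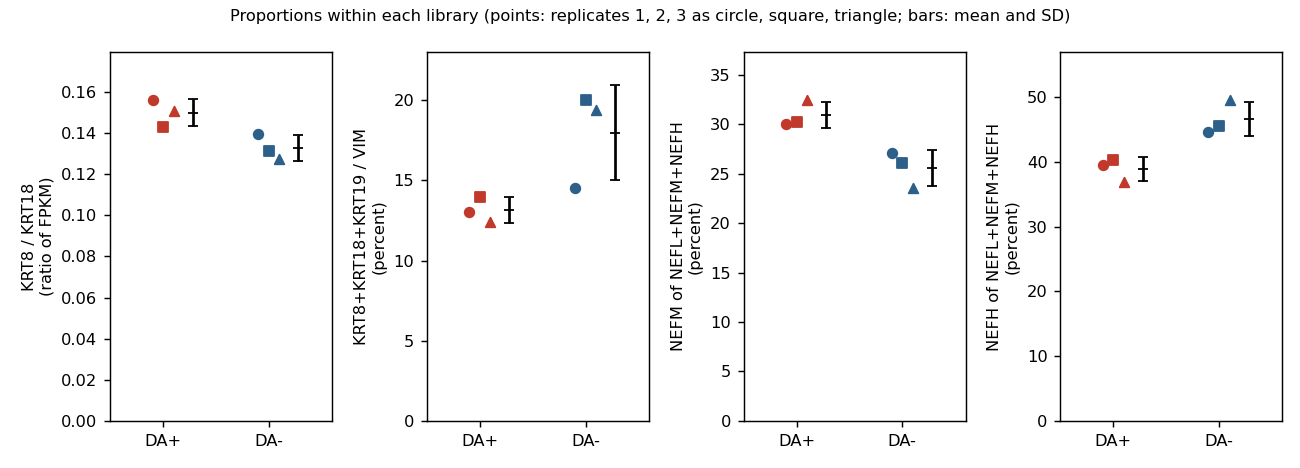
The 4 plotted proportions of FPKM values within each library, for DA+ (left in each panel) and DA- (right): KRT8 over KRT18, the keratin sum over VIM, and the NEFM and NEFH shares of the neurofilament triplet, with the mean and SD beside the points. NEFH holds 36.9 to 40.3% of the triplet in DA+ and 44.6 to 49.5% in DA- libraries, while the FPKM of NEFH itself overlaps between the groups.

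The place of the members on the GC scale differed. The median log2 fold change of genes with a GC content of 55 to 60% was -0.11, and KRT18 and KRT8 lay below it at -0.55 and -0.37. For 50 to 55% the median was -0.01, and NEFM stood above it at 0.46. For 45 to 50% it was 0.16, with NEFL at 0.31 and VIM at -0.09. NES (59.3% GC) had -0.18 beside a bin median of -0.11, and KRT19 (61.8%) and PRPH (61.6%) had -0.27 and -0.21 beside -0.16. How much of each member's difference goes with GC content was not tested beyond these values and the corrected fit.

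**Figure D3:**
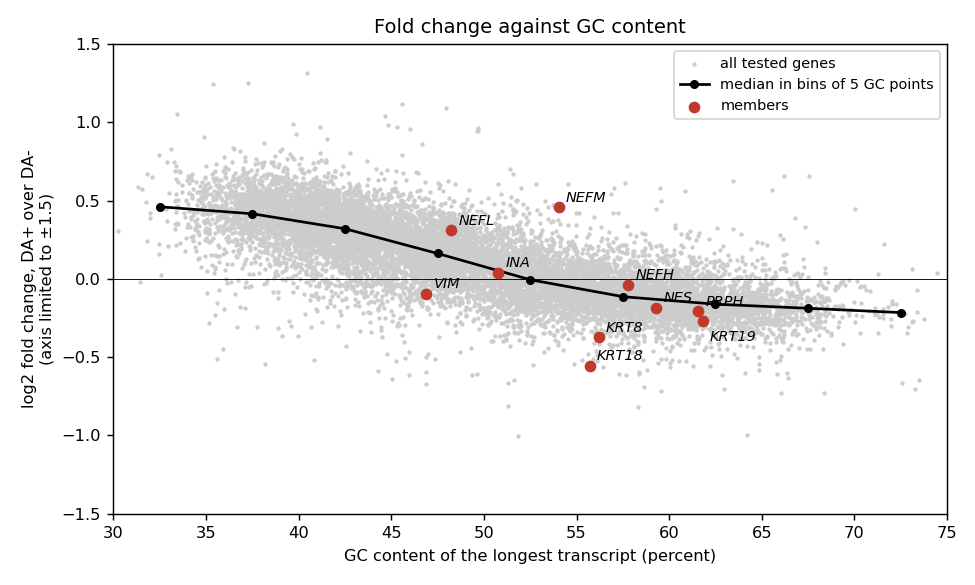
Log2 fold change (DA+ over DA-, vertical axis limited to ±1.5) of all tested genes against the GC content of their longest transcript in percent, with medians in bins of 5 points and the members in red. The medians run from 0.46 at 30 to 35% GC to -0.22 at 70 to 75%, with KRT18, KRT8 and VIM below the line and NEFM above it.

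After the GC and length correction KRT18 had a log2 fold change of -0.51 (SE 0.09) and KRT8 of -0.31 (SE 0.07), both still without overlap. The share of all tested genes without overlap was 38.4% as deposited and was not counted on the corrected scale. The corrected separations of KRT18, KRT8 and VIM therefore stand without that comparison. KRT19 had -0.13 (SE 0.09), PRPH -0.06 (SE 0.11), NEFH 0.05 (SE 0.10) and INA -0.03 (SE 0.12), each with overlapping groups. The members' median was then -0.06, against 0.00 over 11659 genes. None of the 10 passed the adjusted threshold in this fit either (smallest adjusted p = 0.102 in limma), in which 28 of 11659 genes (0.24%) passed. An unadjusted p under 0.05 was found for 4, of which 1 was higher and 3 lower, beside 16.9% of all genes in the corrected fit (8.11% higher and 8.82% lower).

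**Figure D4:**
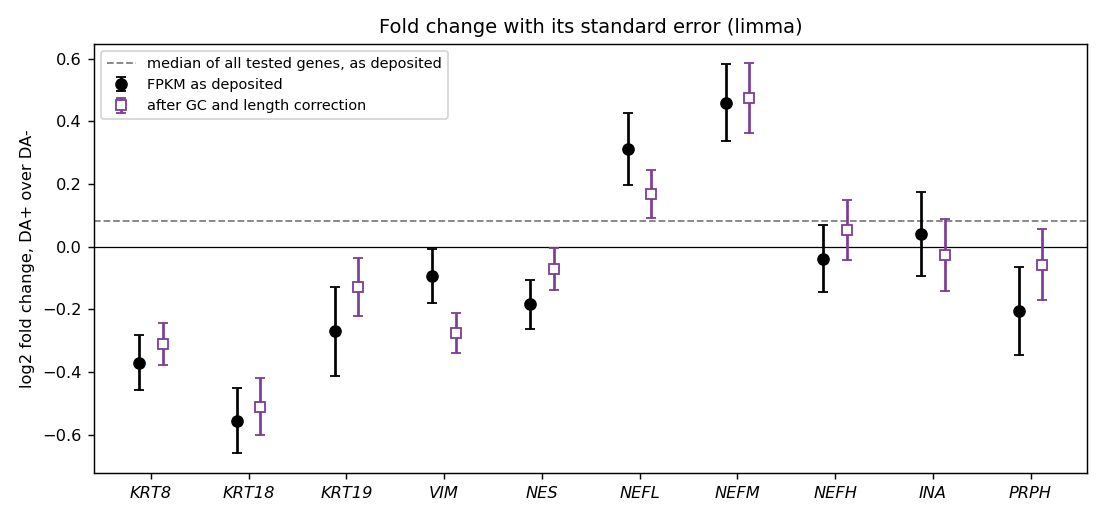
Log2 fold change (DA+ over DA-) with its standard error for each member, from the FPKM as deposited (filled circles) and after the correction for GC content and length (open squares), with the median of all tested genes as a dashed line. KRT18, KRT8 and NEFM hold nearly the same place on both scales, while VIM is lower and NES, KRT19 and PRPH are nearer to 0 after the correction.

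Genes whose centred log2 values were most like those of a member over the 6 libraries were sought for the most abundant member of each role. FLNC, which encodes an actin cross-linking filamin, was nearest to KRT18, with a root mean square difference of 0.044 log2 units, where KRT18 itself varied by 0.30 about its mean. FLNC had 56.3, 65.8 and 56.1 FPKM in DA+ replicates 1 to 3, against 74.7, 85.6 and 90.4 FPKM in DA- replicates 1 to 3, the same order of libraries within each group as in KRT18. FLNC was picked for this likeness, so the shared order is not a separate result. The chromatin protein gene HMGA1 and the semaphorin gene SEMA7A followed at 0.076 and 0.078. VIM, which varied by 0.074, had the plexin gene PLXNA4 and CCDC120 among its nearest, at 0.024 and 0.025. NEFH, which varied by 0.11, was nearest to the caspase gene CASP2, TAF4, a subunit gene of a general transcription factor, and UNC13B, a synaptic vesicle priming gene, at 0.012 to 0.025.

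No gene of the related lists passed the adjusted threshold of limma. The counts at an unadjusted p under 0.05 that follow stand beside 24.4% of all tested genes higher and 8.05% lower at that threshold. Of 22 other keratin genes in the table, 19 had a mean under 1 FPKM. KRT10, a keratin gene of differentiating epidermis, had 10.6 ± 0.858 FPKM in DA+ and 11.6 ± 0.926 FPKM in DA- cells, and KRT80 had 5.48 ± 0.495 FPKM in DA+ and 6.49 ± 0.280 FPKM in DA- cells.

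Genes for other intermediate filament proteins numbered 8 among those tested, and 1 of them had a higher and 2 a lower level with an unadjusted p under 0.05, at a median log2 fold change of -0.07. LMNA, the lamin A and C gene of the nuclear lamina, had 174 ± 22.0 FPKM in DA+ and 223 ± 6.16 FPKM in DA- cells (log2 fold change -0.37, SE 0.10, and -0.22 after the GC and length correction). LMNB2 had 55.0 ± 0.938 FPKM in DA+ and 62.5 ± 2.17 FPKM in DA- cells (log2 fold change -0.18, and -0.04 after the correction). LMNB1 had 17.0 ± 2.64 FPKM in DA+ and 15.7 ± 1.57 FPKM in DA- cells. SYNM, whose product synemin joins vimentin filaments, had 6.55 ± 1.05 FPKM in DA+ and 4.94 ± 0.815 FPKM in DA- cells. The glial filament gene GFAP was near 0.

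Among 8 tested genes of linkers, which tie filaments to junctions and to other fibres, 3 had an unadjusted p under 0.05, of which 1 was higher and 2 were lower (median -0.04). JUP, the plakoglobin gene, had 5.51 ± 0.085 FPKM in DA+ and 7.33 ± 0.187 FPKM in DA- cells. PLEC, the plectin gene, had 46.4 ± 2.83 FPKM in DA+ and 59.4 ± 4.13 FPKM in DA- cells, and its log2 fold change was -0.35 as deposited and -0.13 after the correction. DST, the dystonin gene, had 2.62 ± 0.522 FPKM in DA+ and 1.61 ± 0.592 FPKM in DA- cells. The log2 fold change of DST was 0.59, and 0.26 after the correction.

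Of 7 tested chaperone and turnover genes 3 had an unadjusted p under 0.05, of which 1 was higher and 2 were lower (median 0.07). The small heat shock protein gene HSPB1 had 421 ± 24.2 FPKM in DA+ and 521 ± 18.7 FPKM in DA- cells. Its log2 fold change was -0.31, and -0.14 after the GC and length correction. Of 10 kinase genes 3 had a log2 fold change above 0 and 7 below (median -0.10), and an unadjusted p under 0.05 was reached by 2 with higher and 2 with lower values. CDK1, which phosphorylates vimentin in mitosis, had 6.11 ± 0.894 FPKM in DA+ and 4.37 ± 0.720 FPKM in DA- cells. The log2 fold change of CDK1 was 0.44, and 0.05 after the correction.

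The 13 tested genes of the neuronal cytoskeleton had a median log2 fold change of 0.26 as deposited and 0.03 after the GC and length correction. An unadjusted p under 0.05 was found for 4 with higher and 2 with lower values. STMN2, a growth cone stathmin gene, had 35.2 ± 5.49 FPKM in DA+ and 25.0 ± 1.39 FPKM in DA- cells (log2 fold change 0.48, and 0.19 after the correction). MAP2, a dendrite protein gene, had 4.16 ± 0.842 FPKM in DA+ and 2.85 ± 0.493 FPKM in DA- cells (0.47, and 0.15 after the correction). KIF5B, a kinesin heavy chain gene, had a log2 fold change of 0.54, and 0.14 after the correction. STMN3, another stathmin gene, had -0.22, and -0.05 after the correction. The STMN2 and MAP2 differences became smaller with the correction, as did that of NEFL, while that of NEFM did not. NEFM was not alone in this, since MAP1A of the same list had 0.19 as deposited and 0.23 after the correction.

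The 9 tested lineage transcription factors had a median log2 fold change of 0.35, and of 0.12 after the correction, with ZEB2 and KLF5 then below 0. An unadjusted p under 0.05 was found for 3, all with higher values in DA+ cells, beside 24.4% of all tested genes. SNAI2, a repressor of epithelial genes, had 22.7 ± 2.16 FPKM in DA+ and 16.4 ± 1.11 FPKM in DA- cells (log2 fold change 0.46, and 0.12 after the correction). TWIST2 and KLF4 did not become smaller with the correction. Their log2 fold changes were 0.24 and 0.35 as deposited, and 0.31 and 0.38 after it.

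Markers of other cells were set beside the keratins. Of 9 epithelial markers 8 had a mean under 1 FPKM, among them EPCAM at 0.102 to 0.167 FPKM in DA+ and 0.154 to 0.197 FPKM in DA- cells and CDH1 at 0.0335 to 0.126 FPKM in DA+ and 0.0335 to 0.0644 FPKM in DA- cells. The whole list summed to 2.77 to 2.92 FPKM in DA+ and 3.05 to 3.52 FPKM in DA- libraries. The tight junction gene CLDN4 was the highest, at 1.44 ± 0.232 FPKM in DA+ and 1.75 ± 0.133 FPKM in DA- cells. Mesenchymal neuroblastoma markers (7 of 7 tested) summed to 324 to 340 FPKM in DA+ and 304 to 333 FPKM in DA- libraries, and adrenergic ones to 335 to 386 FPKM in DA+ and 342 to 398 FPKM in DA- libraries. Such sums hide differences between single genes. At an unadjusted p under 0.05, 2 mesenchymal markers were higher and 0 lower. Of 10 tested adrenergic markers 1 was higher and 2 were lower. PHOX2A, the adrenergic marker of smallest p, had 69.5 ± 4.21 FPKM in DA+ and 82.7 ± 2.20 FPKM in DA- cells. Its log2 fold change was -0.25, and -0.05 after the GC and length correction. Schwann cell and glial markers summed to 1.41 to 1.88 FPKM in DA+ and 1.55 to 1.93 FPKM in DA- libraries, and immune markers to under 0.2 FPKM in every library. The 4 nuclear-retained RNAs in the table summed to 7.07 to 10.5 FPKM in DA+ and 4.68 to 6.77 FPKM in DA- libraries. The 3 tested had a median log2 fold change of 0.46, and of 0.12 after the GC and length correction. Their part in the results was not tested.

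**Figure D5:**
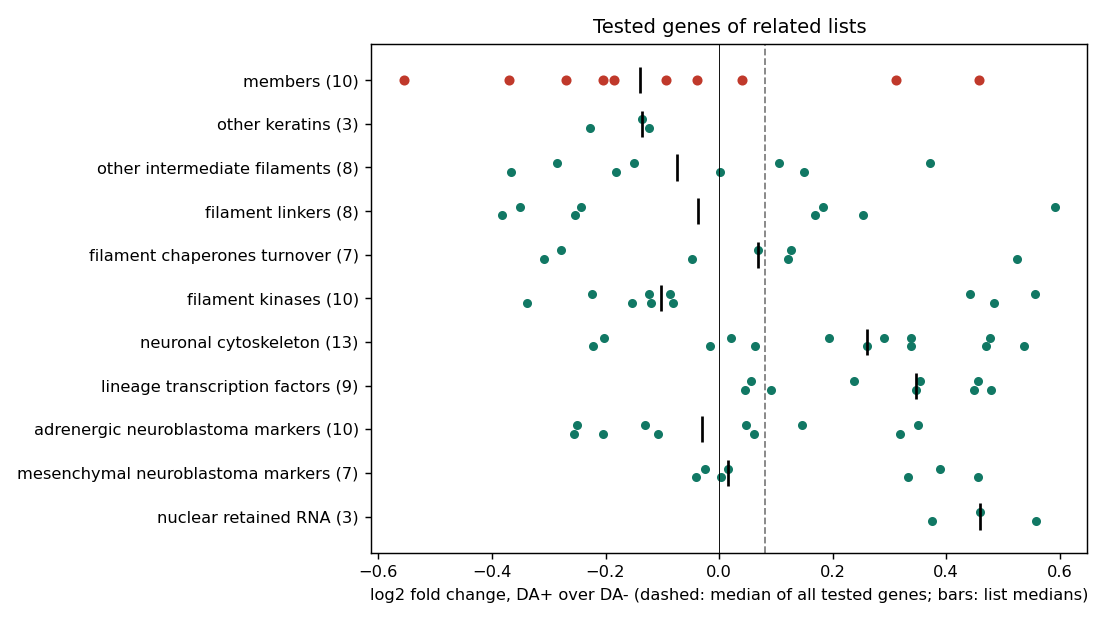
Log2 fold change (DA+ over DA-) of each tested gene in 10 related lists and of the 10 members, with list medians as bars and the median of all tested genes as a dashed line (number of tested genes in brackets). The members spread from -0.55 for KRT18 to 0.46 for NEFM, and the neuronal cytoskeleton list has its median at 0.26.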

How the data were processed

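Each of the 6 libraries had a column of FPKM values in the deposited table of 26789 genes (hg19 coordinates). They are stranded total RNA libraries depleted of ribosomal RNA, from TRIzol extracts, per the labels' protocols. The submitters' processing notes name DESeq2 1.40.2, HTSeq 0.11.2, STAR 2.7.1a, FastQC 0.11.9 and hg19, with no role. Annotation, strand setting and the making of FPKM were not given in the sources used here. The members and lists were chosen with earlier results of these data known. Named genes were the members, the 3 genes most alike for 3 members, overlapping genes and pseudogenes, and up to 4 genes of smallest p per list. Other keratin and intermediate filament genes with a mean of 1 FPKM or more could also be named. HAND2, MAP1A, KLF5, EPCAM, CDH1 and GFAP were named outside this rule.

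Values were analysed as log2(FPKM + 0.5), which understates fold changes of low genes. Genes with a mean of 1 FPKM or more were fitted with limma 3.58.1 (R 4.3.3; intensity trend, two-sided, Benjamini-Hochberg over 11791 genes, threshold 0.05), after tests on simulated data. GC content and length came from the longest GENCODE v29 transcript (98.9% of tested genes, 80 by symbol), with a loess fit of span 0.5. Totals were recovered from 2797 pseudogenes of short span, with 92.6 to 94.0% of tested values whole within 0.03. Alternatives were other pseudocounts, filters, scalings, prior variance, sample quality weights, a replicate block, the correction and leaving out libraries. Some genes and sequences that the rule would name are not reported here.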

Additional observations from a re-analysis of the deposited data

How the results depend on the processing

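The 12 genes called became 5 without the trend, 6 when genes of every level were kept, 27 after quantile normalization, 2706 with sample quality weights, 28 after the GC and length correction and 7 without both replicates numbered 3. Leaving out 1 library gave 3 to 2177, with 2177 without DA- replicate 1, 3 without DA- replicate 2, 6 without DA- replicate 3 or DA+ replicate 1, 9 without DA+ replicate 2 and 7 without DA+ replicate 3. Of the members, 0 were called; 1 was after quantile normalization, 4 were with sample quality weights, and 0 to 3 when 1 library was left out. The members' median log2 fold change lay between -0.18 and -0.10 when 1 library was left out. A replicate block gave 3 called genes and no called member. Same-numbered libraries did not deviate together (r = -0.20, 0.28 and -0.37 over genes for numbers 1, 2 and 3), so the numbers were not taken as pairs. With the block and the correction together 8 genes and no member were called. Over all tested genes the median was -0.02 under median-of-ratios scaling and 0.08 as deposited, and the log2 fold changes of all members were lower by about that shift.

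KRT8, KRT18, KRT19, VIM, NES, NEFL, NEFM and PRPH kept their sign in every setting in which they were fitted. KRT19 and PRPH were not fitted where a mean FPKM of 5 or more was asked for. INA turned to -0.046 with quantile normalization, -0.068 with median-of-ratios scaling, -0.027 after the correction with or without the block, -0.090 without DA+ replicate 3, -0.040 without DA- replicate 2 and -0.099 without both replicates numbered 3. NEFH turned to 0.032 with sample quality weights, 0.052 after the correction with or without the block, 0.0070 without DA+ replicate 2, 0.048 without DA- replicate 3 and 0.010 without both replicates numbered 3. When 1 library was left out INA ranged from -0.090 to 0.133 and NEFH from -0.125 to 0.048. The cause was not tested.

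The DA+ minus DA- difference of the keratin sum over VIM was -4.83 points as deposited, -2.29 after the correction, and -6.54 to -3.82 when 1 library was left out. That of the NEFH share was -7.66, -4.87 and -8.65 to -6.17 points. That of KRT8 over KRT18 was 0.017, with 0.014 to 0.021 when 1 library was left out. Depth limits KRT19 and PRPH most.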
